A study of Mus musculus with 11 samples.

Results

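The genes described here are 10 genes that cells use when oxygen is short or glucose use is high: *Slc2a1*, *Hk2*, *Ldha*, *Pgk1*, *Car9*, *Vegfa*, *Bnip3*, *Egln3*, *Ndrg1* and *Hif1a*. They were chosen by name as a regulator and targets of the hypoxia response, and all 10 have a row among the 26283 genes of the deposited tables. The tumors came from the mammary glands of female C57BL/6 mice at 18 weeks, 6 of the genotype PyMT *Pcbp1*–/– and 5 of the genotype PyMT *Pcbp1*+/+, and whole-tumor RNA was sequenced. All 11 tumors came from mice with MMTV-PyMT, which expresses the polyomavirus middle T oncogene in the mammary gland, and also with MMTV-Cre. The labels do not say whether each tumor came from a different mouse, and every test treats the tumors as independent. The PyMT *Pcbp1*–/– mice had both *Pcbp1* alleles floxed (fl/fl), and the PyMT *Pcbp1*+/+ mice had both alleles wild-type (wt/wt). MMTV-Cre targets the deletion to mammary epithelial cells, while a whole tumor also holds stroma, vessels and immune cells, in which deletion was not tested here. *Pcbp1* encodes a poly(C)-binding protein that acts on RNA. The comparison asked whether the hypoxia and glycolysis genes differed between tumors with and without it.

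As background, HIF-1 is a transcription factor made of an oxygen-sensitive subunit, encoded by *Hif1a*, and a stable partner, encoded by *Arnt*. With oxygen present, prolyl hydroxylases such as the product of *Egln3* mark the HIF-1 alpha protein for destruction, so that its activity is set largely at the protein level. When oxygen falls, the protein persists and raises genes for glucose uptake, glycolysis, pH control and vessel growth, a response common in solid mammary tumors with poorly perfused regions.

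The deposited estimated counts summed to between 10543189 and 14092192 per tumor, with the lowest total in PyMT *Pcbp1*+/+ replicate 2 and the highest in PyMT *Pcbp1*–/– replicate 5. The totals tended to be higher in the PyMT *Pcbp1*–/– libraries (two-sided exact permutation p = 0.00866), with overlap, since PyMT *Pcbp1*–/– replicate 3 lay below PyMT *Pcbp1*+/+ replicate 3. Values are given as deposited CPM, the counts of a gene divided by all counts of the tumor and multiplied by 1000000. *Pcbp1* itself (chr6:86524492-86526321 of GRCm38, minus strand) lay at 15.4, 20.9 and 33.6 CPM as the lowest, median and highest of 6 PyMT *Pcbp1*–/– tumors. Across the 5 PyMT *Pcbp1*+/+ tumors, in replicate order, it lay at 268, 271, 225, 220 and 259 CPM. The groups did not overlap, and *Pcbp1* fell by 3.43 on the log2 scale (SE 0.19, edgeR quasi-likelihood test, adjusted p = 4.72e-06). Every library thus carried the *Pcbp1* level of its label.

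Individual tumors stood apart in these genes. PyMT *Pcbp1*+/+ replicate 2 was the highest of all 11 tumors in *Hk2*, *Pgk1*, *Car9* and *Vegfa*, 4 of the 9 genes other than *Hif1a*. PyMT *Pcbp1*–/– replicate 6 was the lowest in *Hk2*, *Vegfa*, *Car9* and *Ndrg1*. Over those 9 genes, the median log2(CPM + 1) relative to each gene's mean over all tumors was 0.42 in PyMT *Pcbp1*+/+ replicate 2 and -0.40 in PyMT *Pcbp1*–/– replicate 6. The other 9 tumors lay between -0.25 and 0.31. Fold changes that moved most without PyMT *Pcbp1*+/+ replicate 2 or another single tumor are given with and without it.

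Of the 10 genes, 1 fell and 0 rose without *Pcbp1* (edgeR quasi-likelihood test, Benjamini-Hochberg adjusted p under 0.05). The background was 319 of 19232 genes tested lower (1.66%) and 117 higher (0.608%), 2.27% in both directions together. At an unadjusted p under 0.05, 1 of the 10 was lower and 0 were higher, where 10.53% of the genes tested were lower and 8.19% higher. By DESeq2, 1 was lower and 0 higher (3.80% and 2.53% of the genes tested), and by limma-voom with sample quality weights 1 was lower and 1 higher (6.19% and 5.03%). The 10 log2 fold changes had a median of -0.043, from -0.59 to 0.34, beside a median of -0.00012 over the genes tested. The background itself shifted with single tumors. Leaving out PyMT *Pcbp1*–/– replicate 3, 4, 5 or 6 or PyMT *Pcbp1*+/+ replicate 1, 3 or 4 brought the lower genes to between 144 and 212 and the higher genes to between 41 and 69, and leaving out PyMT *Pcbp1*+/+ replicate 2 gave 187 higher genes. All 10 genes passed the filter on low counts, with single-tumor counts from 52 (*Bnip3*) to 6657 (*Ldha*).

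**Figure D1:**
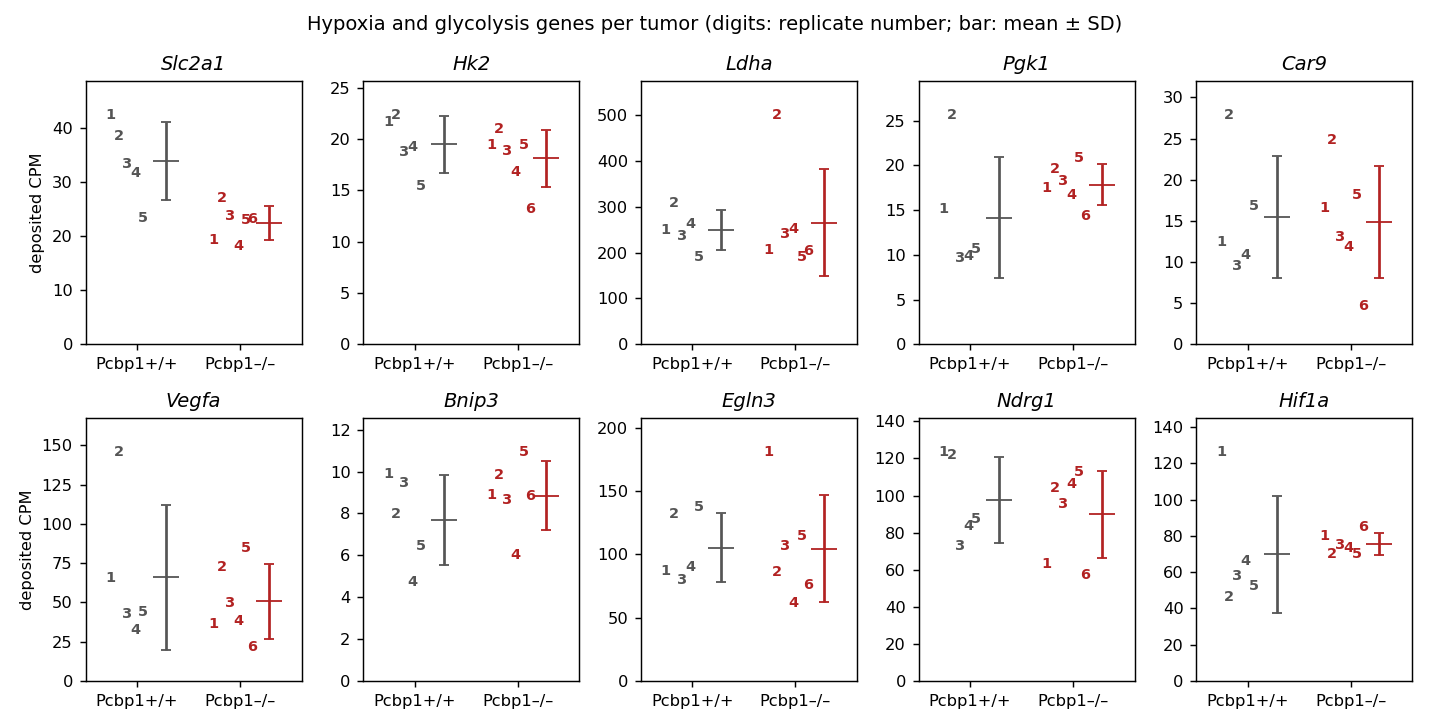
Deposited CPM (vertical axes, linear, from 0) of the 10 genes in 5 PyMT *Pcbp1*+/+ tumors (grey) and 6 PyMT *Pcbp1*–/– tumors (red), with each tumor drawn as its replicate number and a bar for the mean ± SD. *Slc2a1* was lower in PyMT *Pcbp1*–/– tumors with PyMT *Pcbp1*+/+ replicate 5 inside their range, and in the other 9 genes the groups overlapped, with PyMT *Pcbp1*+/+ replicate 2 high in *Vegfa*, *Car9* and *Pgk1*.

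*Slc2a1* was the gene that fell. It encodes GLUT1, the transporter that brings glucose into most cells (ENSMUSG00000028645.11, chr4:119108711-119137983, plus strand). It lay at 18.3, 23.0 and 27.0 CPM as the lowest, median and highest of the PyMT *Pcbp1*–/– tumors, and at 42.4, 38.6, 33.5, 31.8 and 23.4 CPM in the 5 PyMT *Pcbp1*+/+ tumors in replicate order. All 6 PyMT *Pcbp1*–/– tumors were below the PyMT *Pcbp1*+/+ median and 4 were below every PyMT *Pcbp1*+/+ tumor, while PyMT *Pcbp1*+/+ replicate 5 lay among the PyMT *Pcbp1*–/– tumors. The means ± SD were 22.4 ± 3.18 CPM and 33.9 ± 7.23 CPM. *Slc2a1* fell by 0.59 on the log2 scale (SE 0.14, 95% confidence interval -0.89 to -0.30, edgeR quasi-likelihood test, adjusted p = 0.0446), a fold of 0.663. The call was close to the threshold. It ended without any of PyMT *Pcbp1*–/– replicates 1, 3, 4, 5 and 6 or PyMT *Pcbp1*+/+ replicates 1, 2, 3 and 4, with the adjusted p over all leave-one-out fits between 0.0147 and 0.101 and the log2 fold change between -0.68 and -0.53. It also ended in 5 of 10 other settings, namely library size only, both limma fits on log2 CPM, no filter and a replicate block, with adjusted p over the 10 from 0.00401 to 0.101. In bulk RNA, a smaller share of cells with high *Slc2a1* and less *Slc2a1* RNA per cell cannot be told apart.

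*Hk2* encodes hexokinase 2, which phosphorylates glucose once it is inside the cell (ENSMUSG00000000628.10, chr6:82725025-82774454, minus strand). It lay at 13.1, 19.1 and 21.0 CPM as the lowest, median and highest of the PyMT *Pcbp1*–/– tumors and at 21.7, 22.3, 18.7, 19.2 and 15.4 CPM in the 5 PyMT *Pcbp1*+/+ tumors in replicate order. The groups overlapped broadly, with PyMT *Pcbp1*–/– replicate 6 the lowest. The log2 fold change was -0.10 (SE 0.12, 95% confidence interval -0.37 to 0.16, edgeR adjusted p = 0.694), so the interval did not reach the size measured for *Slc2a1*. With a tumor left out it lay between -0.16 (without PyMT *Pcbp1*+/+ replicate 5) and -0.0315 (without PyMT *Pcbp1*–/– replicate 6).

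*Ldha* and *Pgk1* encode enzymes of later steps of the pathway. *Ldha*, for the lactate dehydrogenase subunit that favors lactate production (ENSMUSG00000063229.15, chr7:46841475-46855627, plus strand), lay at 191, 222 and 499 CPM in the PyMT *Pcbp1*–/– tumors and at 248, 308, 235, 263 and 189 CPM in the 5 PyMT *Pcbp1*+/+ tumors in replicate order. The groups overlapped, and PyMT *Pcbp1*–/– replicate 2 alone lay far above both. The log2 fold change was 0.089 (SE 0.23, edgeR adjusted p = 0.868) and turned to -0.18 (adjusted p = 0.435) without that tumor, while it was 0.18 (adjusted p = 0.719) without PyMT *Pcbp1*+/+ replicate 2. *Pgk1* encodes phosphoglycerate kinase, which makes ATP in glycolysis (ENSMUSG00000062070.12, chrX:106187100-106203699, plus strand). It lay at 14.4, 17.9 and 20.8 CPM in the PyMT *Pcbp1*–/– tumors and at 15.1, 25.6, 9.64, 9.84 and 10.6 CPM in the 5 PyMT *Pcbp1*+/+ tumors in replicate order. The 6 PyMT *Pcbp1*–/– tumors were all above the PyMT *Pcbp1*+/+ median and all below PyMT *Pcbp1*+/+ replicate 2. With all tumors the log2 fold change was 0.34 (SE 0.23, edgeR adjusted p = 0.450). Without PyMT *Pcbp1*+/+ replicate 2 it was 0.67 (adjusted p = 0.0306), and limma-voom with sample quality weights, which gives deviating tumors less weight, put it at 0.63 (adjusted p = 0.0272).

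Several glycolysis genes share their sequence with processed pseudogenes, intronless copies elsewhere in the genome, to which reads can be assigned in place of the gene. Pseudogene rows were counted as copies of a gene at 90% identity or more over at least 300 bases. *Pgk1* had 2 such rows with a mean of 108 CPM against 16.2 CPM on the gene, so that 87.0% of the summed CPM lay on copies. *Ldha* had 8 rows that held 55.3%, and *Bnip3* had 3 that held 38.8%. *Gapdh*, the glycolytic dehydrogenase often used as a reference gene, had 35.0 CPM on its own row and 717 CPM on 73 copies, a share of 95.3% on copies. No pseudogene row met these criteria for *Slc2a1*, *Hk2*, *Car9*, *Vegfa*, *Egln3*, *Ndrg1* or *Hif1a*. The levels of *Pgk1*, *Ldha* and *Bnip3* are therefore uncertain. With the copies added, *Pgk1* lay at 110, 132 and 155 CPM in the PyMT *Pcbp1*–/– tumors and at 117, 207, 73.6, 87.3 and 80.2 CPM in the 5 PyMT *Pcbp1*+/+ tumors in replicate order, again with the PyMT *Pcbp1*–/– tumors between PyMT *Pcbp1*+/+ replicate 2 and the PyMT *Pcbp1*+/+ median. An alternative chosen after the data were seen, adding the copies to their gene before the fit, gave log2 fold changes of 0.26 for *Pgk1*, 0.12 for *Ldha* and 0.14 for *Bnip3*, none past the threshold (edgeR adjusted p = 0.582, 0.826 and 0.711).

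**Figure D2:**
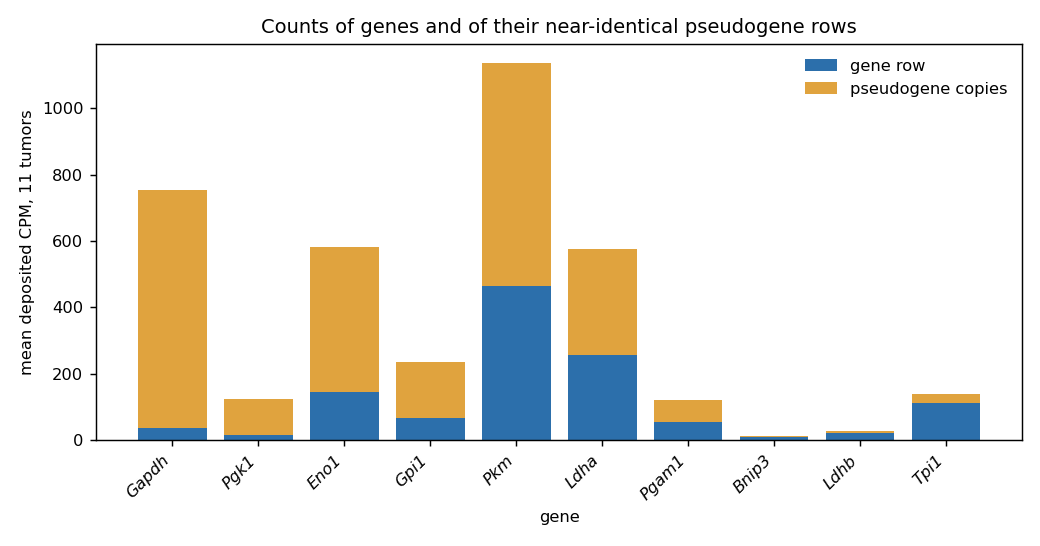
Mean deposited CPM over 11 tumors (vertical axis, linear) of genes with at least 10% of their summed CPM on near-identical pseudogene rows (horizontal axis), stacked as the gene's own row (blue) and its copies (orange). The copies held 95.3% of the summed CPM for *Gapdh*, 87.0% for *Pgk1* and 55.3% for *Ldha*.

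*Car9* and *Vegfa* act outside the cell. *Car9* encodes carbonic anhydrase 9, a membrane enzyme that handles the acid of glycolytic cells and is widely used as a hypoxia marker (ENSMUSG00000028463.14, chr4:43506966-43513729, plus strand). It lay at 4.64, 14.8 and 24.8 CPM in the PyMT *Pcbp1*–/– tumors and at 12.4, 27.8, 9.46, 10.8 and 16.8 CPM in the 5 PyMT *Pcbp1*+/+ tumors in replicate order. The means were 14.8 CPM in the PyMT *Pcbp1*–/– tumors and 15.4 CPM in the PyMT *Pcbp1*+/+ tumors. The spread within each genotype was larger than the difference between these means. It ran between PyMT *Pcbp1*–/– replicates 6 and 2 and between PyMT *Pcbp1*+/+ replicates 3 and 2. The log2 fold change was -0.061 (SE 0.37, 95% confidence interval -0.86 to 0.73, edgeR adjusted p = 0.947). It turned to 0.25 (adjusted p = 0.721) without PyMT *Pcbp1*+/+ replicate 2 and to 0.12 (adjusted p = 0.860) without PyMT *Pcbp1*–/– replicate 6. Without PyMT *Pcbp1*–/– replicate 2 it was -0.26.

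*Vegfa* encodes the growth factor that draws new vessels toward poorly supplied tissue (ENSMUSG00000023951.17, chr17:46016993-46032369, minus strand). It lay at 21.9, 43.9 and 85.0 CPM in the PyMT *Pcbp1*–/– tumors and at 65.4, 146, 42.3, 32.3 and 43.8 CPM in the 5 PyMT *Pcbp1*+/+ tumors in replicate order. The medians of the genotypes were nearly equal, and PyMT *Pcbp1*+/+ replicate 2 stood alone at the top. *Vegfa* had the widest range of the 10 genes, 6.66-fold from the lowest to the highest tumor. The log2 fold change was -0.37 (SE 0.41, edgeR adjusted p = 0.661) and turned to 0.14 (adjusted p = 0.849) without PyMT *Pcbp1*+/+ replicate 2. Without PyMT *Pcbp1*–/– replicate 5 it was -0.59.

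The remaining targets serve mitochondrial turnover, oxygen sensing and stress responses. *Bnip3*, for a mitochondrial protein that promotes mitophagy and cell death (ENSMUSG00000078566.8, chr7:138890836-138909519, minus strand), lay at 6.00, 8.85 and 10.9 CPM as the lowest, median and highest of the PyMT *Pcbp1*–/– tumors and at 9.87, 7.97, 9.46, 4.74 and 6.43 CPM in the 5 PyMT *Pcbp1*+/+ tumors in replicate order. *Egln3*, for the prolyl hydroxylase PHD3 (ENSMUSG00000035105.5, chr12:54178981-54203860, minus strand), lay in the same way at 61.7, 96.3 and 181 CPM and at 86.6, 132, 80.1, 90.03 and 138 CPM. *Ndrg1*, for a stress-responsive protein (ENSMUSG00000005125.13, chr15:66929318-66969640, minus strand), lay at 57.3, 99.8 and 112 CPM and at 123, 122, 73.0, 83.4 and 87.2 CPM. In all 3 genes the ranges of the genotypes overlapped, and PyMT *Pcbp1*–/– replicate 1 held the highest *Egln3* of any tumor. The log2 fold changes were 0.20 for *Bnip3*, -0.025 for *Egln3* and -0.11 for *Ndrg1* (SE 0.20, 0.26 and 0.19, edgeR adjusted p = 0.647, 0.971 and 0.791). That of *Egln3* turned positive without PyMT *Pcbp1*–/– replicate 2 (0.033), 4 (0.087) or 6 (0.048) or PyMT *Pcbp1*+/+ replicate 2 (0.066) or 5 (0.12). Without PyMT *Pcbp1*–/– replicate 1, the *Egln3* value moved the other way, to -0.24. That of *Bnip3* lay between 0.053 (without PyMT *Pcbp1*+/+ replicate 4) and 0.32 (without PyMT *Pcbp1*+/+ replicate 3), and that of *Ndrg1* between -0.19 (without PyMT *Pcbp1*–/– replicate 5) and -0.019 (without PyMT *Pcbp1*–/– replicate 6).

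*Hif1a*, the regulator itself (ENSMUSG00000021109.13, chr12:73901375-73947530, plus strand), lay at 69.7, 74.3 and 85.1 CPM in the PyMT *Pcbp1*–/– tumors. Across the 5 PyMT *Pcbp1*+/+ tumors, in replicate order, it lay at 126, 46.3, 57.8, 66.4 and 52.4 CPM. The 6 PyMT *Pcbp1*–/– tumors fell into a narrow band above 4 of the 5 PyMT *Pcbp1*+/+ tumors and below PyMT *Pcbp1*+/+ replicate 1. The log2 fold change was 0.13 (SE 0.20, edgeR adjusted p = 0.754), and without PyMT *Pcbp1*+/+ replicate 1 it was 0.42 (adjusted p = 0.0949), short of the threshold. Without PyMT *Pcbp1*+/+ replicate 2 it was 0.021 (adjusted p = 0.963). PyMT *Pcbp1*+/+ replicate 1 also had the highest summed CPM of 6 basal epithelial markers. Those sums were 810, 340, 260, 297 and 91.1 CPM in the 5 PyMT *Pcbp1*+/+ tumors in replicate order, and 376, 121, 301, 376, 271 and 392 CPM in the 6 PyMT *Pcbp1*–/– tumors, with *Oxtr* the highest in CPM of the 6 and none at 0 in any tumor. The part of basal cells in the *Hif1a* value was not tested. PyMT *Pcbp1*+/+ replicate 2, the tumor with the highest *Vegfa*, had the lowest *Hif1a*, while PyMT *Pcbp1*+/+ replicate 1, with the highest *Hif1a*, also had the highest *Slc2a1* and *Ndrg1*.

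**Figure D3:**
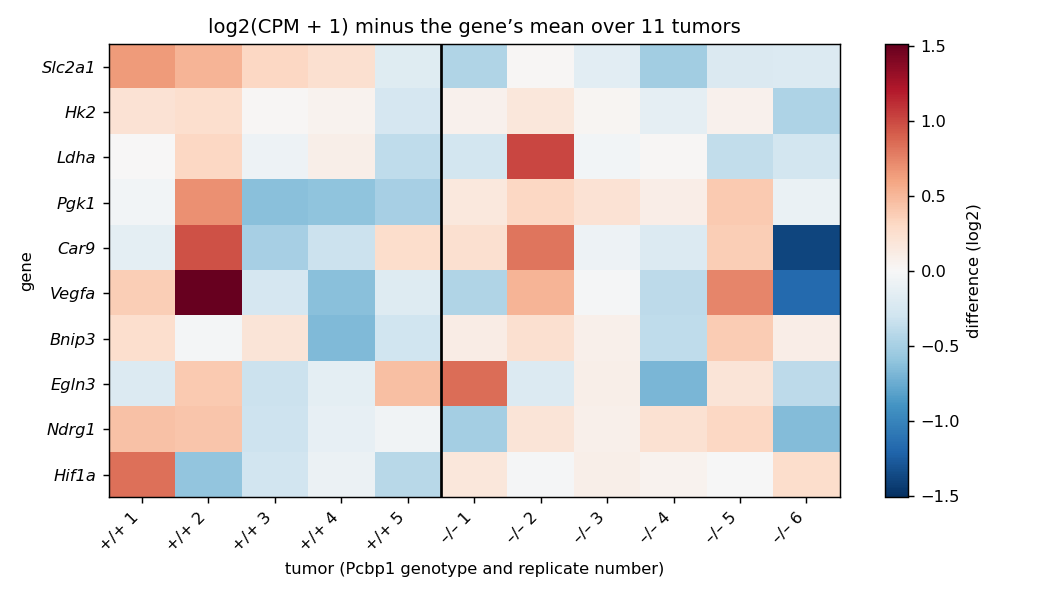
Log2(CPM + 1) of each of the 10 genes (rows) in each tumor (columns, PyMT *Pcbp1*+/+ left of the black line and PyMT *Pcbp1*–/– right) minus that gene's mean over 11 tumors, from blue (lower) to red (higher). PyMT *Pcbp1*+/+ replicate 2 was high in *Vegfa*, *Car9* and *Pgk1*, PyMT *Pcbp1*–/– replicate 6 was low in *Vegfa* and *Car9*, and *Slc2a1* was the row that differed between the genotypes at an adjusted p under 0.05.

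Levels can be ranked across genes only after division by length. Per kilobase of exon, *Ldha* had the highest level of the 10 genes, 162 CPM per kilobase as the mean of 11 tumors, even without its copies. *Egln3* (38.9), *Ndrg1* (29.2), *Vegfa* (16.6) and *Hif1a* (10.7 CPM per kilobase) followed. *Pgk1* (8.86), *Car9* (7.47) and *Slc2a1* (6.22 CPM per kilobase) were close together, and *Hk2* (2.40) and *Bnip3* (2.28 CPM per kilobase) had the lowest levels. The positions of *Pgk1* and *Bnip3* in this order leave out their pseudogene rows. Rows that overlap the 10 genes on the opposite strand were all weak, the strongest being an antisense row across *Hif1a* with a mean of 2.18 CPM.

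The wider pathway was examined as 3 lists of named genes. Among 14 tested genes of the HIF machinery, 0 rose and 0 fell (edgeR adjusted p under 0.05), with 1 higher at an unadjusted p under 0.05 (7.14%, against 8.19% of the genes tested). By both DESeq2 and limma-voom with sample quality weights, 1 was higher at the adjusted threshold, where those tools called 2.53% and 5.03% of the genes tested higher. That gene was *Rbx1*, for the RING subunit of the ligase that removes HIF-1 alpha. It lay at 30.5, 34.7 and 42.2 CPM in the PyMT *Pcbp1*–/– tumors and at 31.5, 31.3, 24.5, 26.6 and 26.6 CPM in the 5 PyMT *Pcbp1*+/+ tumors in replicate order, with a log2 fold change of 0.32 (edgeR adjusted p = 0.111). The members with the highest CPM, not divided by length, the coactivators *Crebbp* and *Ep300* and their partner *Cited2*, had log2 fold changes of -0.028, 0.061 and -0.21. That of *Cited2* was -0.45 (edgeR adjusted p = 0.0745) without PyMT *Pcbp1*–/– replicate 2 and -0.12 (adjusted p = 0.790) without PyMT *Pcbp1*–/– replicate 6. *Epas1*, which encodes HIF-2 alpha, and the cullin gene *Cul2* had log2 fold changes of -0.27 and 0.23, with edgeR adjusted p = 0.455 and 0.361. With a tumor left out, the former lay between -0.38 (without PyMT *Pcbp1*–/– replicate 2) and -0.15 (without PyMT *Pcbp1*+/+ replicate 4) and the latter between 0.14 (without PyMT *Pcbp1*–/– replicate 5) and 0.29 (without PyMT *Pcbp1*+/+ replicate 3).

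Of 31 tested genes of glycolysis and its control, 1 rose and 1 fell (edgeR, against 0.608% and 1.66% of the genes tested), and the one that fell was *Slc2a1*. At an unadjusted p under 0.05 there were 3 higher and 4 lower, together 22.6% against 18.7% of the genes tested. DESeq2 called 2 lower and 2 higher (3.80% and 2.53% of the genes tested), and limma-voom with sample quality weights called 2 lower and 4 higher (6.19% and 5.03%). *Pdk1*, for a kinase that holds pyruvate back from the mitochondria, rose by 0.33 on the log2 scale (SE 0.079, edgeR quasi-likelihood test, adjusted p = 0.0498). It lay at 71.3, 74.5 and 86.2 CPM in the PyMT *Pcbp1*–/– tumors and at 71.9, 61.2, 57.2, 62.1 and 54.1 CPM in the 5 PyMT *Pcbp1*+/+ tumors in replicate order, so that the PyMT *Pcbp1*–/– tumors were all above the PyMT *Pcbp1*+/+ median and overlapped PyMT *Pcbp1*+/+ replicate 1. The *Pdk1* call ended on leaving out any single one of the 11 tumors, with adjusted p from 0.0547 to 0.117 and log2 fold changes from 0.30 to 0.37. It also ended in 5 of 10 other settings, with adjusted p over the 10 from 0.00172 to 0.167 and log2 fold changes from 0.30 to 0.34. *Slc2a1* and *Pdk1*, both known HIF targets, had log2 fold changes of opposite sign, with both calls close to the threshold. The cause was not tested. *Ldhb*, for the lactate dehydrogenase subunit that favors pyruvate, had a log2 fold change of 0.68 (edgeR adjusted p = 0.0987), and *Pfkfb3*, for an enzyme that speeds up glycolysis, one of -0.71 (adjusted p = 0.169) that was -0.40 without PyMT *Pcbp1*+/+ replicate 2, its highest tumor at 95.6 CPM. The enzymes *Pkm* and *Aldoa* had log2 fold changes of 0.23 and 0.19 (adjusted p = 0.383 and 0.755), the latter -0.076 without PyMT *Pcbp1*–/– replicate 2 and 0.46 (adjusted p = 0.354) without PyMT *Pcbp1*+/+ replicate 2. Pseudogene copies held 59.2% of the summed CPM of *Pkm*, 22.6% of that of *Ldhb* and 7.16% of that of *Aldoa*. The levels of *Pkm* and *Ldhb* are thus uncertain as well. The median log2 fold change of the list was 0.089.

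Of 35 other hypoxia targets tested, 0 rose and 0 fell (edgeR), with 3 higher and 3 lower at an unadjusted p under 0.05, a share of 17.1% against 18.7% of the genes tested. DESeq2 called 2 lower and 0 higher, and limma-voom with sample quality weights called 2 lower and 3 higher. Over the genes tested, DESeq2 called 3.80% lower and 2.53% higher, and limma-voom 6.19% and 5.03%. *Ppp1r3c*, which encodes a glycogen-targeting phosphatase subunit, came nearest. It lay at 12.3, 16.2 and 32.5 CPM in the PyMT *Pcbp1*–/– tumors and at 30.9, 33.7, 38.9, 39.7 and 26.8 CPM in the 5 PyMT *Pcbp1*+/+ tumors in replicate order, with only PyMT *Pcbp1*–/– replicate 2 inside the PyMT *Pcbp1*+/+ range. Its log2 fold change was -0.91 (SE 0.22, edgeR adjusted p = 0.0557) and -1.15 (adjusted p = 0.00554) without that tumor. With any other tumor left out it did not pass, the smallest change being -0.82 (adjusted p = 0.126) without PyMT *Pcbp1*+/+ replicate 3, and it passed in 4 of 10 other settings (adjusted p from 0.00366 to 0.0717). The matrix enzymes *Plod2* and *Loxl2* had log2 fold changes of 0.78 and 0.72 (edgeR adjusted p = 0.303 and 0.168), and both moved with single tumors. Without PyMT *Pcbp1*–/– replicate 1 that of *Plod2* was 0.42 (adjusted p = 0.500), and without PyMT *Pcbp1*+/+ replicate 2 it was 1.18 (adjusted p = 0.0983). Without PyMT *Pcbp1*+/+ replicate 1 that of *Loxl2* was 1.03 (adjusted p = 0.0412), and without PyMT *Pcbp1*+/+ replicate 5 it was 0.56 (adjusted p = 0.212). The genes of the list with the highest CPM, not divided by length, *Car12*, *Bhlhe41* and *Bhlhe40*, had log2 fold changes of 0.12, -0.69 and -0.0079, and that of *Bhlhe41* was -0.044 without PyMT *Pcbp1*+/+ replicate 2, where the gene stood at 422 CPM. Neither of the others kept its direction with every tumor left out. *Car12* was -0.18 without PyMT *Pcbp1*–/– replicate 2, -0.020 without PyMT *Pcbp1*+/+ replicate 1, -0.027 without PyMT *Pcbp1*+/+ replicate 5 and 0.35 without PyMT *Pcbp1*+/+ replicate 2, and *Bhlhe40* lay between -0.10 (without PyMT *Pcbp1*–/– replicate 2) and 0.11 (without PyMT *Pcbp1*+/+ replicate 1).

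The 10 genes were then compared between tumors within a genotype. Log2(CPM + 1) was centred on the genotype mean, and each of 45 pairs was correlated over 11 tumors with 100000 shuffles of tumors within genotype. *Pgk1* and *Vegfa* had the highest correlation (Pearson r = 0.90, permutation p = 5e-05, adjusted p = 0.00225 over 45 pairs; Spearman rho = 0.92, permutation p = 0.00014, adjusted p = 0.0063). It was 0.90 again without the 2 tumors farthest from the *Pgk1* median and 0.86 without PyMT *Pcbp1*+/+ replicate 2. Without each tumor in turn and with a smaller pseudocount, the adjusted p was under 0.05 in 12 of 12 settings by Pearson's r and in 10 of 12 by Spearman's rho. By rho the pair did not pass without PyMT *Pcbp1*+/+ replicate 2 (rho = 0.84, adjusted permutation p = 0.130) or without PyMT *Pcbp1*–/– replicate 6 (rho = 0.82, adjusted permutation p = 0.0796). In all, 5 pairs passed by Pearson's r and 6 by Spearman's rho. By rho these included *Hk2* with *Pgk1* (rho = 0.78, permutation p = 0.00435) and with *Vegfa* (rho = 0.83, permutation p = 0.00495), each with an adjusted p of 0.0445, passing in 3 and 2 of the 12 settings. By r they did not pass (r = 0.64 and 0.74, permutation p = 0.0218 and 0.0146, adjusted p = 0.140 and 0.110, and r = 0.73 and 0.75 without the 2 tumors farthest from the *Hk2* median). The other 4 by Pearson's r were *Pgk1* with *Car9* (r = 0.70) and *Ndrg1* (r = 0.68) and *Vegfa* with *Car9* (r = 0.83) and *Ndrg1* (r = 0.80). By r each had an adjusted p of 0.0493 and passed in at most 2 of the 12 settings. By rho they passed in 2, 3, 3 and 4 of the 12 settings. Their Spearman's rho was 0.72, 0.75, 0.82 and 0.85 (permutation p by r = 0.00548, 0.0053, 0.00351 and 0.00488, permutation p by rho = 0.0185, 0.00463, 0.00652 and 0.00212, adjusted p by rho = 0.104, 0.0445, 0.0489 and 0.0445). Without the 2 tumors farthest from the median of the first gene, r was 0.57, 0.71, 0.79 and 0.77. Of the 36 pairs that leave out *Hif1a*, 33 had a positive r, with a median of 0.47. The same shares were not measured over pairs of other genes. The counts of positive and of passing pairs thus have no background to be read against. Deposited CPM divides by all counts of a tumor, and structural RNA genes held 13.4% to 24.3% of these by tumor. The part of that shared scaling in the correlations was not tested. With all tumors, *Hif1a* was correlated with no target at an adjusted p under 0.05 by either measure. Without PyMT *Pcbp1*+/+ replicate 1, its highest tumor, *Hif1a* was negatively correlated with *Vegfa* (r = -0.88, rho = -0.92), *Pgk1* (r = -0.79, rho = -0.78), *Car9* (r = -0.79, rho = -0.82) and *Ndrg1* (r = -0.77, rho = -0.84), with permutation p adjusted over 45 pairs of 0.0181 for *Vegfa* and 0.0374 for the other 3 by r, and of 0.0153, 0.0467, 0.0488 and 0.0430 by rho. Leaving out each tumor in turn was added to the correlations after the data were seen, and no other omission gave *Hif1a* a passing pair. With all tumors r was -0.25 for *Vegfa*, -0.15 for *Pgk1*, -0.41 for *Car9* and 0.048 for *Ndrg1*, and without PyMT *Pcbp1*+/+ replicate 2, the tumor with the lowest *Hif1a*, it was 0.095, 0.55, -0.22 and 0.25. Over the 6 PyMT *Pcbp1*–/– tumors alone, also added after the data were seen (the 5 PyMT *Pcbp1*+/+ tumors are too few for a correlation of their own), r was -0.93, -0.87, -0.82 and -0.95 and rho -0.89, -0.77, -0.77 and -0.83. These values describe the PyMT *Pcbp1*–/– tumors only and were not shown to hold in the PyMT *Pcbp1*+/+ tumors. The exact permutation p was 0.0111, 0.0208, 0.0361 and 0.00556 by r and 0.0333, 0.103, 0.103 and 0.0583 by rho, and none passed after adjustment over 45 pairs (adjusted p by r = 0.125, 0.134, 0.163 and 0.0833, by rho = 0.300, 0.330, 0.330 and 0.330).

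The genes outside every list whose centred values lay closest to the mean of the 9 targets over 11 tumors were *RP23-4F17.1* (r = 0.97), *RP23-227C11.1* (0.94), *Apln* (0.93), *RP23-428M4.1* (0.93) and *Isg20l2* (0.93), out of 13233 genes compared. The 3 RP23 rows are processed pseudogenes that match *Gapdh* at 99.6%, 99.9% and 99.5% identity. *Apln* encodes apelin, a secreted peptide of vessel growth, and *Isg20l2* a nuclear exonuclease. Without PyMT *Pcbp1*+/+ replicate 2 the 5 correlations were between 0.88 and 0.96.

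HIF binds DNA at a short core, and the letters ACGTG and GCGTG were searched on both strands of RefSeq promoter windows of GRCm38.p6, from 250 bases before to 50 after each start site. Of the 10 genes, 9 had windows in the table and *Ndrg1* had none listed. At least 1 match was found for each of the 9, in 10 of their 11 windows, against 43.8% of all 32851 windows. A match is a description of the letters and not of a bound site. Sequence before the start site is shown for *Slc2a1*, the gene that fell, and for *Pgk1* and *Vegfa*, the pair that varied together most closely, 5′ to 3′ on the strand of the gene with matches in capitals (CACGC and CACGT are the cores read from the other strand). The *Slc2a1* stretch (chr4:119108495-119108710, plus strand) stops where the deposited gene begins, and a further ACGTG spans that boundary, 36 bases before the RefSeq start site. The *Pgk1* stretch is chrX:106186850-106187099 (plus strand), and the *Vegfa* stretch is chr17:46032378-46032627 (minus strand). This *Vegfa* window holds neither core, while a window at an internal *Vegfa* start site holds both.
Slc2a1: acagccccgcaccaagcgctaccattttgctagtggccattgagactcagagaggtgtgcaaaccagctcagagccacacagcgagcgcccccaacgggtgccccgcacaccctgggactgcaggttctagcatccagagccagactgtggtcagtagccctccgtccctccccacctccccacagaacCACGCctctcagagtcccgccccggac
Pgk1: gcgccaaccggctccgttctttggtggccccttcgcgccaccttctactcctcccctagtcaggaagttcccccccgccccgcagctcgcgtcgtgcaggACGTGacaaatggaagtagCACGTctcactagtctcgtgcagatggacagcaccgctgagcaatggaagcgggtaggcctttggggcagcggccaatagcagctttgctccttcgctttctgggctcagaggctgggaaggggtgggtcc
Vegfa: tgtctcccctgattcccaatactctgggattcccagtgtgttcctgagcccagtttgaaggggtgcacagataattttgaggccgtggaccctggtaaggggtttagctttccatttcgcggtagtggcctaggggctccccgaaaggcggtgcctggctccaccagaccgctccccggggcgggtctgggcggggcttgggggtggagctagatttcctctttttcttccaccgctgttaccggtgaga

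Marker genes of other cell types and states were summed per tumor to set beside these values. The 8 dividing cell markers, led by *Mki67*, had a mean ± SD of 588 ± 87.1 CPM without *Pcbp1* and of 429 ± 75.4 CPM with it (p = 0.0173 by exact permutation of the genotypes, 0.173 after adjustment for 10 lists). The 5 erythroid markers, led by *Hbb-bs*, had means of 24.3 ± 5.36 CPM and 15.2 ± 7.32 CPM, with an exact permutation p of 0.0476 (adjusted p = 0.238). Neither passed after adjustment. The ratios of PyMT *Pcbp1*–/– to PyMT *Pcbp1*+/+ means in the other lists were 0.973 for luminal epithelial (led by *Cdh1*), 0.851 for basal (*Oxtr*), 0.863 for endothelial (*Cdh5*), 1.18 for macrophage (*C1qb*), 0.934 for T cell (*Cd8a*), 1.21 for fibroblast (*Col1a1*), 0.626 for adipocyte (*Fabp4*) and 1.22 for skeletal muscle markers (*Acta1*), with exact permutation p from 0.260 to 0.870. Several ratios rested on 1 tumor: skeletal muscle was 7.06 without PyMT *Pcbp1*+/+ replicate 5 and 0.828 without PyMT *Pcbp1*–/– replicate 1, adipocyte 1.51 without PyMT *Pcbp1*+/+ replicate 3, and basal 1.24 without PyMT *Pcbp1*+/+ replicate 1. Luminal epithelial markers summed to between 1220 and 2131 CPM in every tumor. Markers at 0 in some tumors were *Cd3d* of T cells, *Adipoq*, *Cidec* and *Retn* of adipocytes, and *Ckm*, *Myh4*, *Mylpf*, *Tnnt3*, *Tnni2* and *Pvalb* of skeletal muscle, where a count of 0 allows up to 3 counts, between 0.213 and 0.285 CPM by tumor, counting error only. Whether cell makeup had a part in the *Slc2a1* or *Pdk1* values was not tested.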

How the data were processed

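Stranded libraries of poly(A)-selected RNA from 11 tumors were sequenced by the authors, aligned to GRCm38 with Bowtie2, and processed in Partek. The annotation version is not given in the sources used here. The authors deposited estimated counts per gene, not whole in 17.9% to 19.7% of values, and CPM, the same counts scaled per tumor. By gene length, deposited stop positions lay 1 base past the GENCODE end in 39.1% of genes and at it in 0.816%, with other differences in the rest, and every stop was reduced by 1. The labels give 1 batch.

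Estimated counts were rounded and fitted with edgeR 4.0.16 in R 4.3.3 (TMM, default low-count filter, quasi-likelihood test, genotype as the only term, Benjamini-Hochberg adjustment). Alternatives were DESeq2 1.42.0, limma 3.58.1 (voom with quality weights, and log2 of CPM plus 1 or 0.1), library size only, structural RNA genes left out, no filter, at least 1 CPM in at least 5 tumors, a replicate block and each tumor left out. Pseudogene copies came from blastn 2.17.0 on GENCODE transcripts (GRCm39), as did exon lengths, matched by Ensembl identifier, with no coordinates taken. The fits were tested on simulated data, where DESeq2 placed a larger share of its calls on unchanged genes than edgeR or limma-voom did. The simulated data held no tumor that deviates across genes. They therefore do not show how the quality weights of limma-voom behave with such tumors. The merging of copies, the correlations with another pseudocount, with a tumor left out or over the PyMT *Pcbp1*–/– tumors alone, and the marker sums with a tumor left out were added after seeing the data.

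The 10 genes and the lists (HIF machinery, glycolysis, other hypoxia targets and 10 sets of cell markers) were chosen with earlier results of these data known. Besides *Pcbp1* and the 10 genes, the rule named from each pathway list the genes with adjusted p under 0.05, the 3 highest in CPM (not divided by length) and the 3 with the largest change at 5 CPM or more, the 5 genes closest to the targets over tumors, and the gene highest in CPM of each marker list and any marker at 0. *Tceb1*, *Tceb2* and *Pklr* had no row under these names, and *Hif3a*, *Eno3*, *Ankrd37* and *Cox4i2* did not pass the low-count filter.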

Additional observations from a re-analysis of the deposited data

Results flagged for a closer look

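Single tumors far from the rest of their genotype, by the gap to the nearest tumor relative to the range, were found in 13 of 78 groups of values examined. The criterion gives about 1 in 20 only for independent values with a normal distribution. CPM on a linear scale need not be normal, and some of these genes varied together. The count is therefore no measure of an excess. PyMT *Pcbp1*–/– replicate 2 was high in *Ldha* (499 CPM, next 251), *Cited2* (196 CPM, next 105), *Aldoa* (383 CPM, next 219), *Car12* (677 CPM, next 324) and *Ppp1r3c* (32.5 CPM, next 18.4). PyMT *Pcbp1*+/+ replicate 2 was high in *Aldoa* (296 CPM, next 157) and *Plod2* (40.0 CPM, next 18.5), and PyMT *Pcbp1*–/– replicate 1 was high in *Plod2* (73.3 CPM, next 34.6). PyMT *Pcbp1*+/+ replicate 1 was high in *Hif1a* (126 CPM, next 66.4) and in summed erythroid markers (27.9 CPM, next 13.2). Summed adipocyte markers were high in PyMT *Pcbp1*+/+ replicate 3 (58.2 CPM, next 10.6) and summed skeletal muscle markers in PyMT *Pcbp1*+/+ replicate 5 (28.9 CPM, next 2.19), while summed dividing cell markers were low in PyMT *Pcbp1*–/– replicate 1 (420 CPM, next 582). The *Vegfa* value of PyMT *Pcbp1*+/+ replicate 2 did not meet this criterion. What sets these tumors apart was not tested.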

How the results depend on the processing

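Each fold change was recomputed under 10 other settings and without each of the 11 tumors. Of 210 recomputed log2 fold changes of the 10 genes, 181 kept both their direction and their side of the threshold. The cause of the changes below was not tested.

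Genes lower in PyMT *Pcbp1*–/– tumors numbered 730 with DESeq2, 1190 with limma-voom with quality weights and 118 with the replicate block, and 144 to 389 with a tumor left out. Genes higher numbered 486, 968 and 42, and 41 to 187. Lower genes made up 60.0% of calls by DESeq2 and 55.1% by limma-voom, against 73.2%. The replicate block covers the 10 tumors numbered 1 to 5. The labels do not say whether equal numbers mark paired tumors. Same-numbered tumors correlated at 0.16, 0.064, -0.11, -0.17 and 0.32, and 2 of 5 PyMT *Pcbp1*–/– tumors correlated best with their own number. These values do not settle whether the tumors were paired.

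The count of the 10 genes lower was 0 with library size only, both limma fits on log2 CPM, no filter and the replicate block, and 0 to 1 with a tumor left out. The count higher was 1 with limma-voom and 0 to 1 with a tumor left out. For *Slc2a1*, those settings gave log2 fold changes of -0.60, -0.58 (pseudocount 0.1), -0.56 (pseudocount 1), -0.58 and -0.60 (adjusted p 0.0669, 0.0784, 0.0778, 0.0570 and 0.101), and -0.68 to -0.53 with a tumor left out. *Pgk1* was 0.63 with limma-voom and 0.23 to 0.67 with a tumor left out.

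With limma-voom, *Ldha* (-0.020), *Car9* (0.073), *Ndrg1* (0.051), *Crebbp* (0.065) and *Ep300* (-0.012) changed sign. With the replicate block, *Car9* (0.18), *Crebbp* (0.013) and *Bhlhe40* (0.0355) did, and with no filter *Bhlhe40* (0.0034). Log2 fold changes spanned 0 with a tumor left out for *Ldha* (-0.18 to 0.18), *Vegfa* (-0.59 to 0.14), *Car9* (-0.26 to 0.25), *Egln3* (-0.24 to 0.12), *Crebbp* (-0.070 to 0.052), *Aldoa* (-0.076 to 0.46), *Car12* (-0.18 to 0.35) and *Bhlhe40* (-0.10 to 0.11). None of these was past the threshold in any setting.

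Glycolysis genes lower numbered 2 with DESeq2 and limma-voom, and higher 2 and 4. Both counts were 0 with library size only, both limma fits on log2 CPM, no filter and the replicate block, and 0 to 1 with a tumor left out. HIF machinery genes higher numbered 1 with DESeq2 and limma-voom. Other targets lower numbered 2 with DESeq2 and limma-voom and 1 with both limma fits on log2 CPM, and higher 3 with limma-voom. Both counts of other targets were 0 to 1 with a tumor left out.

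Pairs passing by Pearson's r numbered 1 with a pseudocount of 0.1 and 1 to 8 with a tumor left out, and by Spearman's rho 0 to 11. Ratios of summed markers crossed 1 with a tumor left out for luminal epithelial (0.927 to 1.03), basal (0.717 to 1.24), T cell (0.829 to 1.08), adipocyte (0.429 to 1.51) and skeletal muscle markers (0.828 to 7.06). Low counts limit *Bnip3* and *Car9* most, with 52 and 60 counts in their lowest tumors.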
